A study of Homo sapiens with 18 samples.

Results

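The 72-hour response of A375 cells to the CDK4/6 inhibitor (CDK4/6i) palbociclib was examined in 4 of the 18 RNA-seq libraries of a study of CDK4/6i and inhibition of the arginine methyltransferase PRMT5 (PRMT5i) in melanoma. A375 and CHL1 are human cutaneous melanoma cell lines. The study's methods give A375 as mutant for BRAF with wild-type p53, and CHL1 as wild type for BRAF and NRAS with mutant p53. The 4 libraries were identified by their labels: 2 of A375 cells treated for 72 hours with 1 μM palbociclib and 2 of A375 cells given DMSO for 72 hours as controls. Poly(A)-selected RNA was sequenced, and the number of reads per gene was deposited for 20705 genes. The other A375 libraries are 2 treated with GSK3326595, a PRMT5 inhibitor, at 500 nM for 72 hours and 2 each of control and CDK4/6i cells at 6 days. The 8 CHL1 libraries hold control, CDK4/6i and PRMT5i cells at 72 hours and CDK4/6i cells at 6 days, with 2 libraries a group. The labels do not state whether replicates came from separate cultures, so p-values measure the spread between these libraries, which may be technical. Total counts were 18701959 and 19598242 in the controls and 18368608 and 19554353 under CDK4/6i. Levels are given below as CPM, the gene's counts relative to its library's total after TMM scaling, always in the order replicate 1 and replicate 2, and a fold change is given with its standard error (SE) on the log2 scale.

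CDK4 and CDK6 are kinases that bind D-type cyclins and phosphorylate the retinoblastoma protein RB and its relatives. Phosphorylation releases E2F transcription factors, which drive the genes of DNA replication, while a related complex built on the same pocket proteins keeps genes of mitosis silent in resting cells. Palbociclib blocks both kinases and arrests RB-proficient cells before S phase, and arrested melanoma cells are known to secrete factors and to display antigens differently from dividing cells.

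Of 8 markers of melanoma identity 5 have an entry, and MLANA, SOX10 and S100A1 have none among the genes analysed here. MITF, the master regulator of the melanocyte lineage, was clearly expressed, with 124 and 116 against 105 and 107 CPM. The pigment cell gene PMEL lay at 1.21 and 1.27 against 2.86 and 3.39 CPM and the calcium binder S100B at 4.36 and 3.85 against 13.2 and 12.6 CPM, whereas tyrosinase (TYR) had at most 3 counts in every library and DCT had no count in either control. Of these markers MITF and S100B were above 3 CPM in every library. Of the blood cell markers 3 of 10 have an entry, and PTPRC and CD14, which define leukocytes and monocytes, summed with lysozyme (LYZ) to 2.31 and 3.06 CPM in the controls and 9.56 and 9.12 CPM under CDK4/6i. LYZ alone lay at 1.99 and 2.69 against 8.96 and 8.44 CPM. The share of counts from mitochondrial genes was 0.461% and 0.335% in the controls and 0.666% and 0.744% under CDK4/6i, and that from ribosomal protein genes was 2.63% and 2.89% against 3.27% and 3.38%. The part of these shares in the results was not tested. In bulk RNA, fewer cells of a type and less RNA per cell cannot be told apart.

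CDK4/6i changed 2761 of 20705 genes (13.3%), of which 1288 (6.22%) were up-regulated and 1473 (7.11%) were down-regulated, by edgeR's quasi-likelihood test at an adjusted p below 0.05. These are called differentially expressed genes (DEGs) below. In all 2761 DEGs both treated libraries lay beyond both controls, a separation also seen in 32.9% of all genes upward and 33.1% downward. The median up-regulated DEG rose 2.25-fold and the median down-regulated DEG fell 1.99-fold, and a change of at least 4-fold was seen in 207 up-regulated and 122 down-regulated DEGs. In counts simulated with the spread estimated over all 10 A375 libraries, the test recovered 4 of 50 genes changed 1.5-fold and 19 of 50 changed 2-fold. It recovered 47 of 50 changed 4-fold and 50 of 50 changed 8-fold. A gene that missed the test may therefore still have changed. The changed genes were drawn only from those above a minimum mean count, so recovery at lower counts was not measured. Recovery at the spread of the 4 compared libraries alone was not measured either. The number of DEGs fell to 1042 without control replicate 1, 844 without control replicate 2, 827 without CDK4/6i replicate 1 and 888 without CDK4/6i replicate 2. Those smaller sets held 1030, 840, 821 and 885 of the 2761 DEGs, all in the same direction. Replicates differed most among the 6-day controls, with a biological coefficient of variation of 0.301, compared with 0.105 in the 72-hour controls and 0.0684 under CDK4/6i, and all 10 A375 libraries shared the estimate of the spread. Estimated from the 4 compared libraries alone, 6940 genes passed, including all 2761. HTSeq was run with its default settings but whether the kit kept the strand was not given in the sources used here, so a gene that overlaps another on the opposite strand cannot be told apart from it. Among genes named here and matched to the annotation this touches ADM2, BAK1, BCL2L11, CCNA2, CCND1, CCNE2, CDK4, CDKN1B, CENPU, CIB2, CIITA, CTSA, CYFIP2, FANCA, FOXM1, FTH1, GINS2, H1FX, HLA-DMA, HLA-DPA1, HLA-DPB1, IL19, IL24, ITGA7, MDC1, MDM2, MMP3, MSH6, NUSAP1, PAX3, PBK, PMS1, PRIM1, PRMT5, RB1, RFXANK, SOCS2, SPC25, STAG3, TDRD6, TICRR, TYMS and WDR77. The plot of change against level shows DEGs across the whole range of expression, with larger changes among genes of low level.

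**Figure D1:**
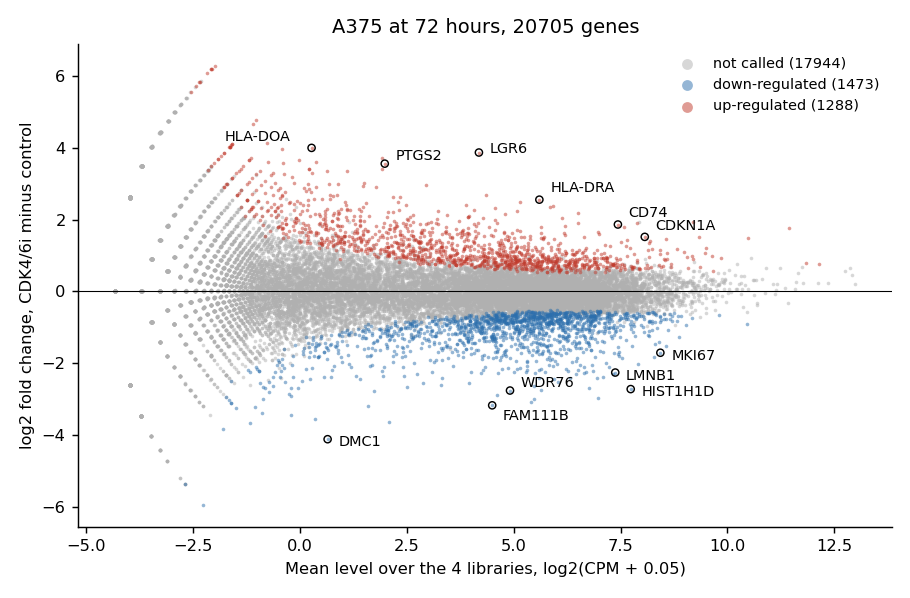
Each point is 1 of the 20705 genes, with its mean level over the 4 libraries as log2(CPM + 0.05) on the horizontal axis and its log2 fold change of CDK4/6i minus control on the vertical axis. Of the coloured DEGs 1288 lie above 0 and 1473 below, and DMC1 at -4.12 and HLA-DOA at 4.00 mark the ends among DEGs whose level averaged 1 CPM or more.

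Genes of the cell cycle, replication, repair, mitosis and histones were gathered in 11 lists of 407 distinct genes, chosen with earlier results of these data known. Of the 407 genes 277 were down-regulated (68.1%, against 7.11% of all genes) and 4 were up-regulated. Their median log2 fold change was -1.05, against 0.00 for all genes. They account for 18.8% of all down-regulated DEGs. For each of these lists below, the shares to set beside the counts are 6.22% up-regulated and 7.11% down-regulated over all genes. The plot of list members shows these lists mostly below 0, and the MHC class II, lysosome and p53 lists mostly above it.

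**Figure D2:**
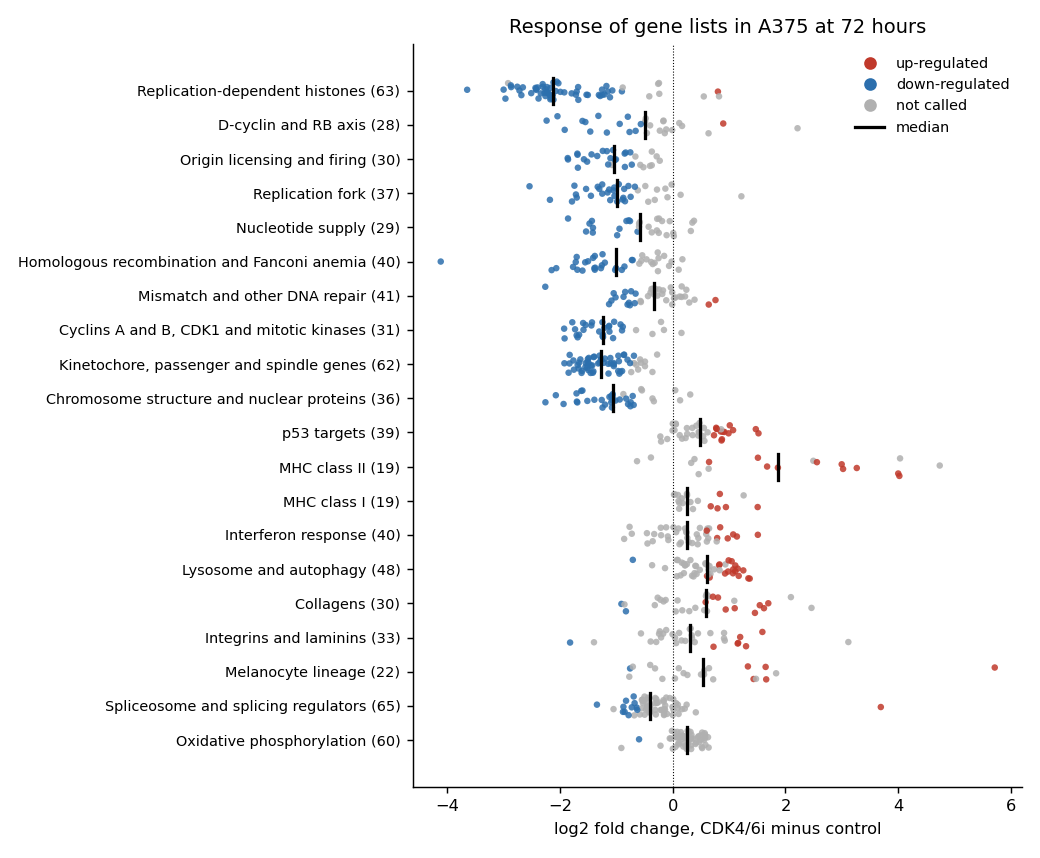
Each point is a measured member of a gene list (number of members in parentheses) at its log2 fold change of CDK4/6i minus control, red if up-regulated, blue if down-regulated and grey if not called, and the black bar is the list median. Of the replication-dependent histones 54 of 63 are blue, and of the MHC class II genes 10 of 19 are red.

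In the cyclin D and RB axis, 13 of 28 measured genes were down-regulated and 1 of 28 was up-regulated, with a median log2 fold change of -0.49. The transcription factor gene E2F2 lay at 25.4 and 27 CPM in the controls and 4.78 and 6.3 CPM under CDK4/6i and was 4.72-fold lower (log2 fold change -2.24 ± 0.27, adjusted p = 8.16e-05) by edgeR. E2F1, its relative that activates S-phase genes, lay at 57.5 and 60.3 CPM in the controls and 16.6 and 23.5 CPM under CDK4/6i and was 2.93-fold lower (log2 fold change -1.55 ± 0.26, adjusted p = 0.00109). MYBL2, a transcription factor of the S-to-mitosis programme, was 4.13-fold lower, FOXM1, which drives mitotic genes, was 2.76-fold lower and RBL1, the pocket protein p107, was 3.04-fold lower. Cyclin E2 (CCNE2), the partner of CDK2 at S-phase entry, was 3.78-fold lower with 13.9 and 14.5 against 3.63 and 3.85 CPM. All of these calls held when any 1 of the 4 libraries was left out. The gene that rose in this list was cyclin D1 (CCND1), the activating partner of the drug's targets, with 406 and 419 CPM in the controls and 756 and 778 CPM under CDK4/6i. It was 1.86-fold higher (log2 fold change 0.90 ± 0.19, adjusted p = 0.0063), and the call was lost when any 1 library was left out. The targets themselves did not pass the test. CDK4 lay at 116 and 139 against 129 and 125 CPM (log2 fold change -0.01 ± 0.22, adjusted p = 1) and CDK6 at 611 and 653 against 556 and 569.9 CPM (log2 fold change -0.17 ± 0.18, adjusted p = 0.605). CCND2 (log2 fold change 2.21 ± 0.79, adjusted p = 0.0751), CCND3 (log2 fold change 0.16 ± 0.23, adjusted p = 0.692), CCNE1 (log2 fold change 0.63 ± 0.24, adjusted p = 0.0876) and RB1 (log2 fold change -0.49 ± 0.24, adjusted p = 0.2) did not pass either. The number of down-regulated genes in this list was 8 to 11 with 1 library left out.

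Among the CDK inhibitor genes, CDKN1A, which encodes p21, lay at 135 and 141 CPM in the controls and 378 and 416 CPM under CDK4/6i and was 2.87-fold higher (log2 fold change 1.52 ± 0.28, adjusted p = 0.00215). CDKN3, a phosphatase that acts on CDKs and peaks in dividing cells, was 3.38-fold lower, and CDKN2C, which encodes the CDK4/6 inhibitor p18, was 1.81-fold lower. The CDKN2C call was lost in 3 of the 4 fits with 1 library left out. CDKN1B, which encodes p27, gave a log2 fold change of -0.41 ± 0.22 (adjusted p = 0.259).

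Of the origin licensing and firing genes 21 of 30 were down-regulated and none was up-regulated, with a median log2 fold change of -1.04 (13 to 19 down-regulated with 1 library left out). CDC45, the helicase cofactor that fires origins, lay at 46.9 and 47.7 CPM in the controls and 12.4 and 13.6 CPM under CDK4/6i and was 3.63-fold lower (log2 fold change -1.86 ± 0.21, adjusted p = 5.27e-05) by edgeR. MCM6, a subunit of the helicase ring, fell 2.98-fold from 126 and 148 to 42.2 and 49.8 CPM. GINS2, another part of the helicase, fell 3.64-fold, MCM10 3.23-fold, the licensing inhibitor geminin (GMNN) 3.23-fold and the firing factor TICRR 3.21-fold. Of the replication fork genes 27 of 37 fell, with a median of -0.99 (16 to 22 with 1 library left out). POLE2, a subunit of the leading-strand polymerase, lay at 25.3 and 27.2 CPM in the controls and 3.9 and 5.1 CPM under CDK4/6i and was 5.82-fold lower (log2 fold change -2.54 ± 0.23, adjusted p = 1.61e-05). The primase subunit PRIM1 fell 4.53-fold, the nuclease and helicase DNA2 3.45-fold, the polymerase subunit POLD3 3.35-fold, the checkpoint mediator claspin (CLSPN) 3.29-fold and the chromatin assembly factor subunit CHAF1B 3.26-fold. Of the nucleotide supply genes 12 of 29 fell, with a median of -0.58 (7 to 9 with 1 library left out). Ribonucleotide reductase lost transcripts of both subunits, RRM2 by 3.63-fold from 233 and 343 to 72.1 and 86.8 CPM and RRM1 by 2.68-fold. Thymidine kinase TK1 fell 2.79-fold, thymidylate synthase (TYMS) 2.7-fold and deoxycytidine kinase (DCK) 2.67-fold. All 17 genes named here kept their calls when any 1 library was left out.

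Of the homologous recombination and Fanconi anemia genes 25 of 40 fell and none rose, with a median log2 fold change of -1.01 (20 to 21 with 1 library left out). DMC1, the recombinase of meiosis, lies at chr22:38914953-38966209 of GRCh37. It lay at 2.99 and 2.74 CPM in the controls and 0.11 and 0.208 CPM under CDK4/6i and was 17.4-fold lower (log2 fold change -4.12 ± 0.47, adjusted p = 5.11e-05) by edgeR, the deepest fall among DEGs of at least 1 CPM. BARD1, the partner of BRCA1, fell 4.44-fold from 55.3 and 54.5 to 12.9 and 11.9 CPM. The helicases BRIP1 and BLM fell 4.19-fold and 3.26-fold and the Fanconi core gene FANCA fell 3.3-fold. Of the genes of mismatch repair and other repair pathways 13 of 41 fell and 2 rose, against 7.11% and 6.22% of all genes, with a median of -0.33. NEIL3, a glycosylase of dividing cells, fell 4.8-fold, and the call held with any 1 library left out. MSH6 (log2 fold change -1.13 ± 0.27, adjusted p = 0.0105), PMS1 (log2 fold change -1.05 ± 0.23, adjusted p = 0.00618), MDC1 (log2 fold change -1.02 ± 0.22, adjusted p = 0.00634) and UNG (log2 fold change -0.87 ± 0.20, adjusted p = 0.00774) also fell, but each kept its call in at most 1 of the 4 such fits. The count of falls in this repair list was 2 to 5 with 1 library left out.

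Of the cyclins A and B, CDK1 and mitotic kinases 26 of 31 were down-regulated, with a median log2 fold change of -1.24 (20 to 25 with 1 library left out). Cyclin A2 (CCNA2) lay at 79 and 104 CPM in the controls and 21.3 and 27 CPM under CDK4/6i and was 3.78-fold lower (log2 fold change -1.92 ± 0.19, adjusted p = 2.57e-05) by edgeR. CDK1, the kinase that starts mitosis, fell 3.44-fold from 96.5 and 115 to 31.1 and 30.4 CPM. The centrosome kinases NEK2 and PLK4 fell 3.8-fold and 3.33-fold, the passenger kinase AURKB 3.26-fold and the mitotic kinase PBK 3.22-fold. Of the kinetochore, passenger and spindle genes 52 of 62 fell, with a median of -1.27 (36 to 48 with 1 library left out). ASPM, which organises spindle poles, lay at 463 and 514 CPM in the controls and 140.4 and 135 CPM under CDK4/6i and was 3.55-fold lower (log2 fold change -1.83 ± 0.22, adjusted p = 8.16e-05). The spindle protein NUSAP1 fell 3.6-fold, the microtubule destabiliser STMN1 3.56-fold, and the kinetochore genes SPC25, CENPK and CENPU 3.79-fold, 3.39-fold and 3.38-fold. In the chromosome structure and nuclear protein list 28 of 36 fell, with a median of -1.07 (15 to 22 with 1 library left out). Lamin B1 (LMNB1), a nuclear envelope protein whose loss is used as a mark of senescence, lay at 249 and 300.0 CPM in the controls and 54.3 and 60.4 CPM under CDK4/6i and was 4.79-fold lower (log2 fold change -2.26 ± 0.18, adjusted p = 9.09e-06). The proliferation marker MKI67 fell 3.27-fold from 497 and 559 to 148 and 176 CPM, the chromatin protein HMGB2 4.21-fold, the histone methyltransferase EZH2 3.83-fold, the chromatin remodeller HELLS 3.25-fold and the DNA methylation cofactor UHRF1 3.24-fold. All 18 genes named here kept their calls when any 1 library was left out.

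Histone transcripts had the lowest median of the 38 lists. The replication-dependent histone genes, 63 in number, were taken by symbol, and HIST3H2BA among them is annotated as a pseudogene. Of the 63 genes 54 were down-regulated and 1 was up-regulated, against 7.11% and 6.22% of all genes. Their median log2 fold change was -2.12 (42 to 51 down-regulated with 1 library left out). Replication-dependent histone mRNA normally carries no poly(A) tail, so that a poly(A)-selected library samples only a part of it. Summed over the 63 genes the level was 6271 and 8207 CPM in the controls and 1763 and 2079.5 CPM under CDK4/6i, and the groups did not overlap. The linker histone gene HIST1H1A (chr6:26017260-26018015, GRCh37) lay at 5.4 and 10.2 CPM in the controls and 0.77 and 0.469 CPM under CDK4/6i and was 12.5-fold lower (log2 fold change -3.65 ± 0.46, adjusted p = 9.8e-05) by edgeR. HIST1H4A fell 8.01-fold from 62.1 and 95.6 to 8.3 and 11.4 CPM, HIST2H2BF 7.83-fold, HIST1H2BM 7.33-fold, HIST1H1B 6.77-fold and HIST1H1D 6.59-fold. By class, the falls numbered 5 of 6 H1 genes, 10 of 11 H2A genes, 18 of 21 H2B genes, 11 of 13 H3 genes and 10 of 12 H4 genes, with medians of -2.74, -2.12, -2.13, -2.22 and -1.48. With 1 H1 gene at the counting floor in the treated group set to its bound, the H1 median was -2.38. The gene that rose was HIST2H2BB (log2 fold change 0.80 ± 0.25, adjusted p = 0.0463). Its call was lost whenever 1 library was left out and in at least 1 other fit. Many core histone genes (H2A, H2B, H3 and H4) of a class have similar sequences, so the split of reads among them is uncertain. Of the histone variants, whose genes are not tied to replication in the same way, 7 of 11 fell, with a median of -0.89 (2 to 6 with 1 library left out). The centromeric histone CENPA fell 2.81-fold from 47.5 and 55.6 to 18.7 and 18 CPM, and the linker variants H1F0 and H1FX fell 2.25-fold and 2.51-fold.

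Promoters of these groups differed in the short motifs they hold. A promoter was taken as 250 bases before to 50 bases after the RefSeq gene start (GRCh38.p14), and 12395 of the 20705 genes could be matched to one, among them 866 up-regulated and 1049 down-regulated genes. The E2F motif was searched as TTTCCCGC, TTTGGCGC or TTTCGCGC, the cell cycle homology region (CHR), which the mitotic gene repressor complex recognises, as TTTGAA or TTCGAA, and the box of the factor NF-Y as CCAAT, each on both strands. A match is a description of the letters and not a bound site. Below are promoters of 8 genes whose responses are given in the text, chosen with their values known, as read on the strand of the gene and with the matches named for each gene in capitals. Matches to the other motifs stay in lower case. Positions count from the gene start, with the first base upstream at -1.

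The first set shows E2F motifs in E2F1 itself (chr20:33686336-33686635, minus strand, match at -20), DMC1 (chr22:38570134-38570433, minus strand, overlapping matches at -6 and -2) and MCM6 (chr2:135876394-135876693, minus strand, overlapping matches at -152 and -148 and again at -90 and -86).
E2F1: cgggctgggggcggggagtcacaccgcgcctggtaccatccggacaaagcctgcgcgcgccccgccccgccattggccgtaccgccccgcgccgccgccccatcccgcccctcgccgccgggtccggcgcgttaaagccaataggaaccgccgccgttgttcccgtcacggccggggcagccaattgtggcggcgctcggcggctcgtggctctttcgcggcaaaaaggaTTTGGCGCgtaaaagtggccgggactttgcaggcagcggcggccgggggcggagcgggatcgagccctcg
DMC1: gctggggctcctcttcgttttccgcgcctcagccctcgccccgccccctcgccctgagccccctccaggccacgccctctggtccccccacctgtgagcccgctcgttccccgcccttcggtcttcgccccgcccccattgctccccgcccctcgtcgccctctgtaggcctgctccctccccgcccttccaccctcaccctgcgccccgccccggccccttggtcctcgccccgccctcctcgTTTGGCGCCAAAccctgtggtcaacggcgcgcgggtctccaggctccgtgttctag
MCM6: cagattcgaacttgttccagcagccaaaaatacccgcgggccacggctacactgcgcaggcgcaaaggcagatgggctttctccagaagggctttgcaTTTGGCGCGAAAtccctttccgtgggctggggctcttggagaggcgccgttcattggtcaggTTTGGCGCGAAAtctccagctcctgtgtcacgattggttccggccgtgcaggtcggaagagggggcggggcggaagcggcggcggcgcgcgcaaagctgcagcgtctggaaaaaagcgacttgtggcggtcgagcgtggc

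The second set shows mitotic genes, with CHR and CCAAT marked in ASPM (chr1:197146620-197146919, minus strand, CHR at -113 and CCAAT at -134, -90, -65 and -25) and E2F, CHR and CCAAT marked in CENPA (chr2:26785806-26786105, plus strand, E2F at -232, CHR at -18 and CCAAT at -205 and -130).
ASPM: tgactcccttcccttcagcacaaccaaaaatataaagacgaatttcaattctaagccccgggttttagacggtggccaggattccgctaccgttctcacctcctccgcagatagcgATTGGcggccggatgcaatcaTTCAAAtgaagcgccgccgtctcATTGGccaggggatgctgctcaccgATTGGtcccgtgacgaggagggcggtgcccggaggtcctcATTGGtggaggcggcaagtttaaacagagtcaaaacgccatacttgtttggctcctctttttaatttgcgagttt
CENPA: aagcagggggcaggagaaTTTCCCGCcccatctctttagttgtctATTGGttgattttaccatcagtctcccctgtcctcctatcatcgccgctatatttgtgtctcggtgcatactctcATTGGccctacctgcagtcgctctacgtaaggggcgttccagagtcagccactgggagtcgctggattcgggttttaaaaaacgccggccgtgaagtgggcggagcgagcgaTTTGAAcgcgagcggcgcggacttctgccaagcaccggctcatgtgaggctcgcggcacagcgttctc

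The third set shows CCAAT in a histone gene that fell, HIST1H1B (chr6:27867539-27867838, minus strand, matches at -66 and -53), and in 2 MHC class II genes that rose, HLA-DOA (chr6:33009542-33009841, minus strand, match at -67) and HLA-DMB (chr6:32940979-32941278, minus strand, match at -22).
HIST1H1B: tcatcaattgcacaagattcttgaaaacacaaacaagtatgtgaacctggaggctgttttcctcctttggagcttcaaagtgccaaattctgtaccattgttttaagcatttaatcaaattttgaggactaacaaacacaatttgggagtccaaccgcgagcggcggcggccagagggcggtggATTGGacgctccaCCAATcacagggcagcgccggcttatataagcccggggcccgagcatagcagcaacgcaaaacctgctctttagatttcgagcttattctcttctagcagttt
HLA-DOA: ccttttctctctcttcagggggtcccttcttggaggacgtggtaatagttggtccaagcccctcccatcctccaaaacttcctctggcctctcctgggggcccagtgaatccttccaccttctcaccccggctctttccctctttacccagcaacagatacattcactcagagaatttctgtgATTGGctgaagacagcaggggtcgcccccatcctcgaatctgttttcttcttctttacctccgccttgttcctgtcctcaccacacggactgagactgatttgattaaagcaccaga
HLA-DMB: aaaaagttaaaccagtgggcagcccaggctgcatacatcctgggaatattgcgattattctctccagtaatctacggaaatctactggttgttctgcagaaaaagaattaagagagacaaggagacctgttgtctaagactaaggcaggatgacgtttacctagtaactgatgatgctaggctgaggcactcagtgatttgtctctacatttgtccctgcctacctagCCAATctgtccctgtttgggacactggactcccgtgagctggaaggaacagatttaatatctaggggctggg

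The E2F motif was found in 2.79% of all 27305 reference promoters and in 4.12% of the 12395 matched to genes here. It was in 10.9% of the promoters of down-regulated genes (114), in 1.85% of those of up-regulated genes (16) and in 3.64% of those of genes not called. CHR was found in 16.6% of all reference promoters and in 12.2% of the 12395. It was in 20.1% for down-regulated genes (211), in 9.82% for up-regulated genes (85) and in 11.5% for genes not called. CCAAT was found in 35.7% of all reference promoters and in 35.9% of the 12395, with 43.9%, 35.2% and 35.2% in the same order of genes. Some lists held mostly the E2F motif or mostly CHR, and others held both. The chromosome structure list held the E2F motif in 8 of 32 promoters and CHR in 12 of 32. Histone promoters held them in 11 of 50 and 19 of 50, and the homologous recombination list held each in 6 of 35. The E2F motif was in 12 of 25 licensing promoters and 9 of 30 fork promoters but in 1 of 25 of the mitotic kinase list, whereas CHR was in 1 of 30 fork promoters, 13 of 25 of the mitotic kinase list and 36 of 51 kinetochore promoters. In the kinetochore list 29 of 51 held CHR together with CCAAT. Histone promoters held CCAAT in 41 of 50, with 6 of 6 H1, 10 of 10 H2A, 12 of 12 H2B and 12 of 12 H3 genes but 1 of 10 H4 genes. MHC class II promoters held CCAAT in 13 of 16, CHR in 6 of 16 and the E2F motif in 0 of 16. E2F matches lay nearer the start in down-regulated genes, at a median position of -40 against -116 in genes not called, and CHR matches at -72 against -140. Read in the other direction, among genes of at least 1 CPM, 23.8% of 471 with an E2F motif were down-regulated and 3.4% up-regulated, compared with 24.2% and 5.86% of 512 with CHR and CCAAT and 8.21% and 8.02% of 8926 with neither an E2F motif nor CHR. The full p53 motif, searched by its usual consensus, was in 8 of all 27305 reference promoters and in 0 of 32 of the p53 target list. By call it was in 3 of 866 promoters of up-regulated genes, 0 of 1049 of down-regulated genes and 1 of 10480 of genes not called. Matches were this rare in all sets, and sequence outside the promoters was not searched. The 0 of 32 therefore cannot show whether the listed genes have p53 sites.

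**Figure D3:**
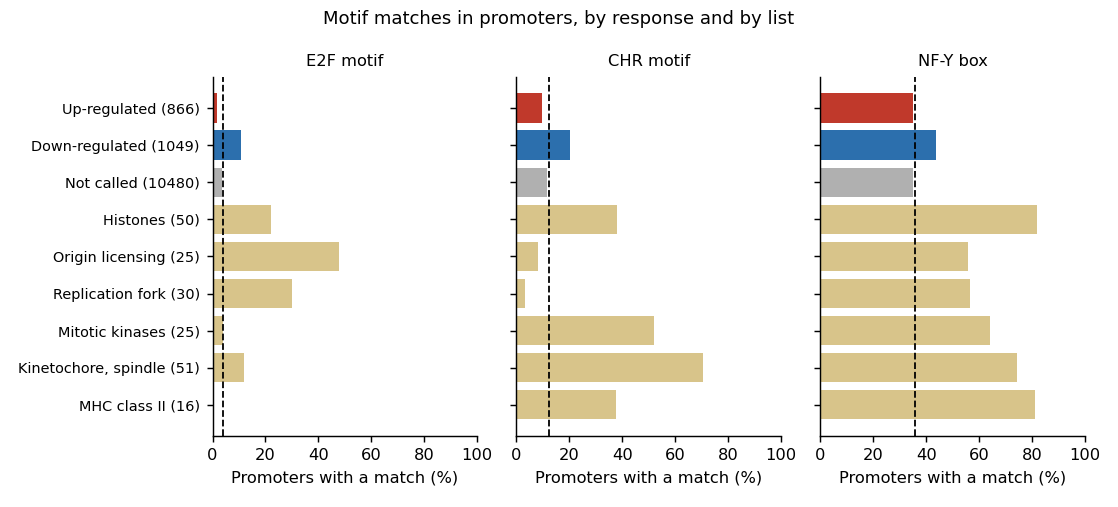
Bars give the percentage of promoters that hold the E2F motif, the CHR motif or the NF-Y box, for the genes of each call and for 6 gene lists (number of promoters in parentheses), and the dashed lines mark the share over all 12395 genes with a promoter. Among the 6 lists the licensing list has the highest share with the E2F motif (12 of 25), the kinetochore list with CHR (36 of 51) and the histone list with the NF-Y box (41 of 50).

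Genes of antigen display on MHC class II, which hands peptides to CD4+ T cells, rose. Of 19 genes 10 were up-regulated and none fell, against 6.22% and 7.11% of all genes (8 to 9 up-regulated with 1 library left out). The median log2 fold change was 1.87, or 1.51 with genes at the counting floor of 3 counts set to their bound and 2 genes at the floor in both groups left out. The summed level was 218 and 249.6 CPM in the controls and 555 and 695 CPM under CDK4/6i. CIITA, the master activator of these genes, lay at 16.6 and 17.1 CPM in the controls and 47.3 and 60.2 CPM under CDK4/6i and was 3.19-fold higher (log2 fold change 1.67 ± 0.21, adjusted p = 9.79e-05) by edgeR. The invariant chain CD74, which guides class II molecules, lay at 67 and 82.2 CPM in the controls and 235 and 309 CPM under CDK4/6i and was 3.64-fold higher (log2 fold change 1.87 ± 0.24, adjusted p = 0.000114). HLA-DRA, the alpha chain of HLA-DR, lay at 12.2 and 15.9 CPM in the controls and 69.3 and 96.3 CPM under CDK4/6i and was 5.89-fold higher (log2 fold change 2.56 ± 0.27, adjusted p = 2.88e-05). The treated libraries were well above the controls in all 3 genes, with the higher value in CDK4/6i replicate 2. HLA-DPA1 rose 2.85-fold, the peptide loader HLA-DMB 7.99-fold from 0.315 and 0.369 to 2.09 and 3.44 CPM, and HLA-DRB5 8.12-fold from 0.367 and 0.844 to 4.01 and 5.89 CPM. HLA-DOA (chr6:32971959-32977368, GRCh37), which restrains peptide loading, had at most 3 counts in each control and lay at 0.157 and 0.106 against 1.65 and 2.71 CPM, at least 13.8-fold higher. HLA-DRB1 and HLA-DQA2 were also at the floor in the controls and were at least 8.29-fold and at least 3.19-fold higher. RFX5, a subunit of the promoter-binding complex with which CIITA works, gave a log2 fold change of 0.64 ± 0.20 (adjusted p = 0.0438), and its partners RFXANK (log2 fold change 0.46 ± 0.23, adjusted p = 0.213) and RFXAP (log2 fold change -0.63 ± 0.25, adjusted p = 0.11) did not pass the test. HLA-DPB1 (log2 fold change 0.39 ± 0.24, adjusted p = 0.33) and the loader subunit HLA-DMA (log2 fold change -0.39 ± 0.33, adjusted p = 0.492) did not pass either. The calls of HLA-DQA2 and RFX5 were lost in some fits with 1 library left out, and those of the other 8 genes held. HLA-DRB1 with HLA-DRB5 and HLA-DQA1 with HLA-DQA2 are close relatives among which reads may be split.

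Of the MHC class I genes, which display peptides to CD8+ T cells, 5 of 19 were up-regulated and none fell, with a list median of 0.25. Over all genes, for this list and the interferon list below, 6.22% were up-regulated and 7.11% down-regulated. HLA-B lay at 15.3 and 15.6 CPM in the controls and 43.9 and 43.9 CPM under CDK4/6i and was 2.84-fold higher (log2 fold change 1.51 ± 0.21, adjusted p = 0.000218) by edgeR. HLA-E, a ligand of natural killer cell receptors, rose 1.92-fold, HLA-C 1.78-fold and the loading chaperone tapasin (TAPBP) 1.6-fold. The HLA-B and HLA-E calls held with any 1 library left out, and those of HLA-C and TAPBP were lost in every such fit. B2M, the shared light chain, lay at 348 and 409.8 against 520.4 and 512 CPM (log2 fold change 0.45 ± 0.19, adjusted p = 0.142), NLRC5, the class I activator, at 49.1 and 40.9 against 50.4 and 45.6 CPM (log2 fold change 0.09 ± 0.21, adjusted p = 0.823), and the transporter TAP2 at 93.7 and 108 against 106 and 119 CPM (log2 fold change 0.16 ± 0.19, adjusted p = 0.629). Of 40 interferon response genes 7 rose and none fell, with a median of 0.25 (1 to 4 with 1 library left out). The secreted glycoprotein LGALS3BP rose 2.1-fold from 442 and 469 to 984 and 932 CPM and kept its call throughout. GBP2 (log2 fold change 1.51 ± 0.39, adjusted p = 0.0178), the ubiquitin-like modifier ISG15 (log2 fold change 1.14 ± 0.25, adjusted p = 0.00707), the RNA sensor DDX58 (log2 fold change 0.98 ± 0.23, adjusted p = 0.00944) and the signal transducer STAT2 (log2 fold change 0.84 ± 0.18, adjusted p = 0.00497) rose too, and each of these calls was lost in at least 2 of the 4 such fits. Of the leukocyte markers beside these genes PTPRC lay at 0.157 and 0.158 against 0.22 and 0.469 CPM and CD14 at 0.157 and 0.211 against 0.385 and 0.208 CPM. LYZ rose from 1.99 and 2.69 to 8.96 and 8.44 CPM and the leukocyte integrin ITGAX from 8.19 and 4.54 to 21.1 and 17.3 CPM. The part of blood cells in these changes was not tested.

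**Figure D4:**
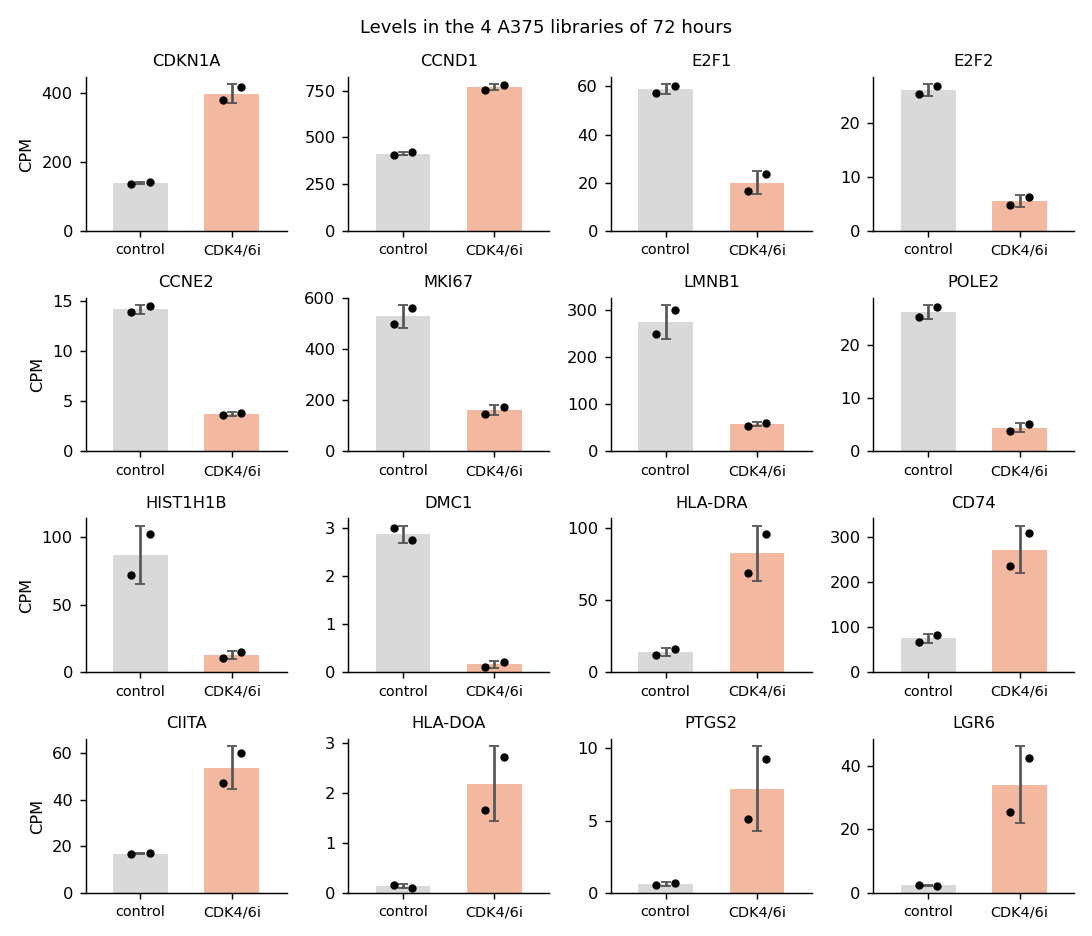
Each panel gives the level of a gene in CPM, with points for the libraries, bars for the means of 2 libraries and error bars for the SD. E2F1, E2F2, CCNE2, MKI67, LMNB1, POLE2, HIST1H1B and DMC1 lie lower in both CDK4/6i libraries and the other 8 genes lie higher, with no overlap between groups.

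Targets of the transcription factor p53 rose in part. Of 39 genes 14 were up-regulated and none fell, against 6.22% up-regulated among all genes, with a median log2 fold change of 0.47. The count was 3 to 4 with 1 library left out. Beside CDKN1A, the antiproliferative gene BTG2 rose 2.78-fold from 12.5 and 16.8 to 32.6 and 49 CPM, the RNA-binding gene ZMAT3 2.1-fold, CYFIP2 2.02-fold, the adhesion gene PERP 1.99-fold and the death gene BBC3 (PUMA) 1.89-fold. CDKN1A and CYFIP2 kept their calls in all 4 fits with 1 library left out, ZMAT3 in 3, BTG2 in 2, PERP in 1 and BBC3 in 0. MDM2, the p53 ubiquitin ligase and itself a p53 target, lay at 154 and 168 against 217 and 226 CPM (log2 fold change 0.46 ± 0.18, adjusted p = 0.108). Of the 16 BCL2 family genes 2 rose and 2 fell, against 6.22% and 7.11% of all genes. BCL2, which protects from apoptosis, lay at 31.9 and 29.6 CPM in the controls and 7.75 and 10.2 CPM under CDK4/6i and was 3.43-fold lower (log2 fold change -1.78 ± 0.24, adjusted p = 0.000165) by edgeR. The death gene BCL2L11 (BIM) fell 1.76-fold and BAK1 rose 1.79-fold, and both calls were lost whenever 1 library was left out.

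Among secreted cytokines and growth factors 6 of 44 rose and 2 fell (3 to 5 rises with 1 library left out), and the 6 largest changes were all rises. Over all genes, the share to set beside this and the lists below, 6.22% rose and 7.11% fell. The plasminogen activator PLAT rose 3.04-fold from 63.8 and 62.3 to 191 and 192 CPM, the cytokine IL24 2.54-fold, the matrix protease MMP2 2.28-fold from 273 and 275 to 609 and 641 CPM, MMP3 3.95-fold, the inflammatory cytokine IL1B 2.56-fold and the growth factor binder IGFBP3 2.21-fold. The MMP3 and IL1B calls held in 1 of the 4 fits with 1 library left out. PTGS2, which encodes cyclooxygenase-2, the inducible enzyme of prostaglandin synthesis, lies at chr1:186640923-186650054 (GRCh37). It lay at 0.525 and 0.686 CPM in the controls and 5.11 and 9.27 CPM under CDK4/6i and was 11.8-fold higher (log2 fold change 3.56 ± 0.39, adjusted p = 3.82e-05). Collagens were 9 of 30 up-regulated and 2 of 30 down-regulated, with a median of 0.59, but only 3 to 4 rises were called with 1 library left out. COL17A1, a collagen of hemidesmosomes, rose 3.07-fold from 7.66 and 6.91 to 21.3 and 23.5 CPM and the basement membrane gene COL4A6 rose 2.92-fold, both held throughout, and the cartilage collagen COL9A2 rose 3.24-fold. Of 33 integrins and laminins 6 rose and 1 fell (2 to 3 rises with 1 library left out). Laminin beta 2 (LAMB2) rose 2.29-fold from 191 and 172 to 445 and 388 CPM, the laminin receptor ITGA7 2.46-fold and the leukocyte integrin ITGAX 3.01-fold from 8.19 and 4.54 to 21.1 and 17.3 CPM, whereas ITGA9 fell 3.54-fold. Fibronectin (FN1) lay at 331 and 343 CPM in the controls and 866 and 1061 CPM under CDK4/6i and was 2.86-fold higher (log2 fold change 1.51 ± 0.21, adjusted p = 0.000206). Of the fibroblast markers 7 of 8 have an entry, and they summed to 46.5 and 42.9 CPM in the controls and 40.8 and 33.7 CPM under CDK4/6i. Among them LUM rose 4.66-fold from 1.47 and 1.69 to 7.42 and 7.34 CPM, COL1A1 fell 1.88-fold and COL3A1 lay at 0.0525 and 0.0528 against 0.44 and 0.0521 CPM. The part of other cell types in these changes was not tested.

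Of the lysosome and autophagy genes 17 of 48 rose, against 6.22% of all genes, with 1 of 48 down-regulated and a median log2 fold change of 0.61 (9 to 12 rises with 1 library left out). Acid sphingomyelinase (SMPD1) lay at 17.6 and 18.8 CPM in the controls and 48.2 and 45.6 CPM under CDK4/6i and was 2.58-fold higher (log2 fold change 1.37 ± 0.21, adjusted p = 0.000634) by edgeR. The iduronidase IDUA rose 2.38-fold, the ceramidase ASAH1 2.22-fold, and the cathepsins CTSF, CTSA and CTSK 2.25-fold, 2.16-fold and 2.53-fold. CTSK kept its call in 2 of the 4 fits with 1 library left out and the other 5 in all 4. TFEB (log2 fold change 0.22 ± 0.27, adjusted p = 0.659), an activator of lysosomal genes, and TFE3 (log2 fold change 0.42 ± 0.23, adjusted p = 0.251) did not pass the test. In the oxidative stress list 5 of 25 genes rose (0 to 2 with 1 library left out), among them OSGIN1 (log2 fold change 1.63 ± 0.41, adjusted p = 0.0159), ferritin heavy chain FTH1 (log2 fold change 1.21 ± 0.35, adjusted p = 0.0302) and the secreted peroxidase GPX3 (log2 fold change 1.18 ± 0.26, adjusted p = 0.0069).

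In the melanocyte lineage list 5 of 22 genes rose and 1 fell, with a median of 0.53 (2 to 3 rises with 1 library left out). GPNMB, a melanosomal glycoprotein, lay at 64 and 57.4 CPM in the controls and 207 and 176 CPM under CDK4/6i and was 3.16-fold higher (log2 fold change 1.66 ± 0.20, adjusted p = 7.95e-05) by edgeR. S100B rose 3.13-fold and kept its call throughout, as did GPNMB. PMEL rose 2.52-fold, and DCT, with no count in the controls, was at least 1.7-fold higher. PAX3, a factor of melanocyte precursors, fell 1.69-fold. MITF (log2 fold change -0.18 ± 0.19, adjusted p = 0.572) did not pass. Of 31 genes of the dedifferentiated melanoma state 3 rose and 2 fell, against 6.22% and 7.11% of all genes. Beside FN1, ANKRD1 rose 2.34-fold and SNAI2 3.94-fold, while the receptor kinases AXL and EGFR fell 1.67-fold and 1.63-fold. The SNAI2, AXL, EGFR, PMEL, DCT and PAX3 calls were each lost in at least 3 of the 4 fits with 1 library left out. Among 29 genes of MAPK pathway output, the feedback gene SPRED3 alone passed, with a log2 fold change of 0.90 ± 0.21 (adjusted p = 0.00976).

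Of 33 cholesterol and fatty acid genes 4 fell and none rose (1 to 3 with 1 library left out). INSIG1, the sterol sensor that retains SREBP, lay at 78.8 and 84.1 CPM in the controls and 33.2 and 23.3 CPM under CDK4/6i and was 2.88-fold lower (log2 fold change -1.53 ± 0.22, adjusted p = 0.000274) by edgeR. The desaturase SCD fell 1.9-fold and the elongase ELOVL6 1.6-fold. In the ATF4 stress response list 5 of 24 fell and 1 rose, against 7.11% and 6.22% of all genes (1 to 4 falls and no rise with 1 library left out). PHGDH, which starts serine synthesis, fell 2.17-fold from 195 and 214 to 93.8 and 94.6 CPM, asparagine synthetase (ASNS) 2.09-fold and CEBPG 2.15-fold, while SESN2 rose 1.72-fold. Of 60 oxidative phosphorylation genes 1 passed, NDUFS4 (log2 fold change -0.60 ± 0.18, adjusted p = 0.0429), with a list median of 0.25. The number of rises in that list was 0 here and up to 32 in the other fits, the highest with a replicate block. Glycolysis had 1 rise among 23 genes (PFKFB4, log2 fold change 0.77 ± 0.20, adjusted p = 0.017) and ribosome biogenesis 1 fall among 35 (UTP20, log2 fold change -0.73 ± 0.17, adjusted p = 0.0104). Of 65 splicing genes 11 fell and 1 rose, with a median of -0.40, but 1 to 2 falls were called with 1 library left out and 8 to 40 in the other fits. PTBP2, the neural relative of the splicing repressor PTB, fell 2.54-fold from 118 and 105 to 43.8 and 43.7 CPM and kept its call. PRMT5 lay at 12.7 and 15 against 11.5 and 12.7 CPM (log2 fold change -0.19 ± 0.26, adjusted p = 0.675) and its partner WDR77 at 34.4 and 38.9 against 42.8 and 44.7 CPM (log2 fold change 0.26 ± 0.20, adjusted p = 0.436), and in that list only the spermine synthase gene SMS passed (log2 fold change -0.63 ± 0.18, adjusted p = 0.0312). The calls of NDUFS4, PFKFB4, UTP20 and SMS were each lost whenever 1 library was left out. Among 23 cancer-testis antigens SSX1 fell (log2 fold change -2.26 ± 0.71, adjusted p = 0.0447) and STAG3 rose (log2 fold change 1.12 ± 0.36, adjusted p = 0.0487), both lost whenever 1 library was left out.

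Among DEGs averaging 1 CPM or more, the 15 largest rises ran from 7.97-fold to HLA-DOA, and 13 of them are described here or above. LGR6 (chr1:202162927-202288909, GRCh37), a receptor of R-spondins in the WNT pathway, lay at 2.41 and 2.22 CPM in the controls and 25.4 and 42.5 CPM under CDK4/6i and was 14.6-fold higher (log2 fold change 3.87 ± 0.54, adjusted p = 0.000224) by edgeR. The cornified envelope gene SPRR2D rose 10.7-fold, the vitamin B12 binder TCN1 10.7-fold, the GABA transporter SLC6A13 10.7-fold, the cytoskeletal linker EPPK1 10.2-fold and the germ cell gene TDRD6 8.03-fold. SPRR2D and EPPK1 are genes of epithelia, and the epithelial markers, of which 7 of 8 have an entry, summed to 232 and 251 CPM in the controls and 224 and 230.2 CPM under CDK4/6i, and KRT14 alone among them rose (3.74-fold from 1.94 and 2.01 to 6.82 and 7.97 CPM, lost with any 1 library left out). KDR, the VEGF receptor that also marks endothelium, rose 7.97-fold from 0.42 and 0.0528 to 1.81 and 2.03 CPM, while the summed endothelial markers lay at 4.88 and 2.43 CPM in the controls and 5.94 and 5.63 CPM under CDK4/6i. The transcripts RP11-774O3.3 and RP11-400N13.3 rose 10.2-fold and 9.79-fold. The call of RP11-400N13.3 was lost in 3 of the 4 fits with 1 library left out and that of KDR in 1. Of the 15 largest falls 8 were histone genes. FAM111B (chr11:58874658-58894885, GRCh37), a protease gene of dividing cells, lay at 37.9 and 43.2 CPM in the controls and 4.12 and 4.84 CPM under CDK4/6i and was 9.02-fold lower (log2 fold change -3.17 ± 0.24, adjusted p = 5.52e-06). WDR76 (chr15:44119178-44160610, GRCh37), a WD-repeat gene, lay at 50.9 and 53.9 CPM in the controls and 7.37 and 8.07 CPM under CDK4/6i and was 6.78-fold lower (log2 fold change -2.76 ± 0.19, adjusted p = 3.25e-06). C2orf48 fell 8.42-fold, and the transcripts RP11-15I11.2, RP11-798M19.3 and CTD-2535I10.1 fell 11.8-fold, 9.06-fold and 6.78-fold. The call of RP11-15I11.2 was lost in 1 of the 4 such fits.

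The same treatment in CHL1 cells, with their own controls, gives the comparison between lines. The response differed between A375 and CHL1 in 133 genes (0.642%), 83 (0.401%) with a higher and 50 (0.241%) with a lower log2 fold change in A375, by an interaction test in edgeR over all 18 libraries, and in 30 to 46 genes when 1 of the 8 libraries was left out. CDK4/6i changed 953 genes (4.6%) in CHL1 itself. Of the 407 genes of replication, mitosis, repair and histones 135 fell there (background 2.43%) and the median log2 fold change was -0.50, compared with -1.05 in A375, while 9 of the 407 had a lower log2 fold change in A375 by the test of the difference. POLE2 changed by -2.48 in A375 and -0.88 in CHL1 (difference -1.60 ± 0.28, adjusted p = 0.0112), LMNB1 by -2.20 in A375 and -0.52 in CHL1 (difference -1.68 ± 0.28, adjusted p = 0.00697) and FAM111B by -3.12 in A375 and -0.93 in CHL1 (difference -2.19 ± 0.35, adjusted p = 0.0057). For the 63 histone genes the median was -1.45 in CHL1 with 43 falls, and none passed the test of the difference. HIST1H4F, with a fitted CHL1 log2 fold change of 0 and an SE of the difference of 7754.95, could not pass it. PTGS2 changed by 3.62 in A375 and -0.14 in CHL1, with 3.42 and 2.27 CPM in the CHL1 controls and 2.35 and 2.8 CPM in CHL1 under CDK4/6i (difference 3.76 ± 0.54, adjusted p = 0.00237). FN1 changed by 1.57 in A375 and -0.10 in CHL1 (difference 1.67 ± 0.33, adjusted p = 0.0251). The MHC class II genes were measured in CHL1 in part. Of the 19 genes 8 had at most 3 counts in each of the 4 CHL1 libraries, 6 of them no count at all. HLA-DRA had 0 counts in all 4, which allows at most 3 counts per library, and CD74 lay at 0.933 and 0.851 CPM in the CHL1 controls and 0.411 and 0.683 CPM in CHL1 under CDK4/6i. HLA-DPA1 lay at 1.55 and 0.993 CPM in the CHL1 controls and 1.53 and 1.19 CPM in CHL1 under CDK4/6i, and CIITA at 0.691 and 0.674 CPM in the CHL1 controls and 0.933 and 0.827 CPM in CHL1 under CDK4/6i. CD74 was the only one of the 19 to pass the test of the difference (2.62 ± 0.45, adjusted p = 0.00967). The test could not pass a gene without a CHL1 count, such as HLA-DRB5 (difference 3.08, SE 7884.79). For those genes it cannot show whether the lines differ. Of the calls named in this paragraph, those of PTGS2 held in all 8 fits with 1 library left out and the others were lost in at least 1.

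PRMT5i for 72 hours gives the comparison between treatments within A375. CDK4/6i and PRMT5i differed in 1129 genes (5.45%), 639 (3.09%) higher and 490 (2.37%) lower under CDK4/6i, by edgeR on the direct contrast, in which the control drops out, and in 92 to 141 genes when 1 of the 4 libraries was left out. Each drug against the shared controls called 2761 and 541 genes (13.3% and 2.61%). Of the 407 genes of replication, mitosis, repair and histones 103 fell under PRMT5i (background 1.74%) with a median of -0.56, and 108 were lower under CDK4/6i than under PRMT5i. Of the histone genes 23 fell under PRMT5i with a median of -0.97, and 27 were lower under CDK4/6i. Of the p53 list 20 of 39 genes rose under PRMT5i (background 0.874%) with a median of 0.99, and 7 were lower under CDK4/6i than under PRMT5i while none was higher. GDF15, a stress cytokine and p53 target, lay at 13.7 and 16.4 CPM under CDK4/6i, 71.7 and 111 CPM under PRMT5i and 13.6 and 15.9 CPM in the controls (CDK4/6i minus PRMT5i -2.60 ± 0.23, adjusted p = 5.6e-05). MHC class II genes had a median of 0.33 under PRMT5i with no rise called, and 8 of the 19 were higher under CDK4/6i, as were 5 of 19 MHC class I and 14 of 48 lysosome genes. Among genes that passed the test and averaged 1 CPM or more, HLA-DOA had the largest positive difference (3.12 ± 0.49, adjusted p = 0.00279), with 1.65 and 2.71 CPM under CDK4/6i, 0.297 and 0.194 CPM under PRMT5i and 0.157 and 0.106 CPM in the controls. PTGS2 lay at 5.11 and 9.27 CPM under CDK4/6i, 0.771 and 1.03 CPM under PRMT5i and 0.525 and 0.686 CPM in the controls (difference 2.99 ± 0.38, adjusted p = 0.000697) and LGR6 at 25.4 and 42.5 CPM under CDK4/6i, 4.15 and 5.24 CPM under PRMT5i and 2.41 and 2.22 CPM in the controls (difference 2.86 ± 0.51, adjusted p = 0.005). In the other direction the immediate early gene EGR1 lay at 2.91 and 3.96 CPM under CDK4/6i, 12 and 22.2 CPM under PRMT5i and 3.83 and 4.38 CPM in the controls (difference -2.31 ± 0.36, adjusted p = 0.00228), the extracellular matrix gene EFEMP1 at 6.76 and 9.01 CPM under CDK4/6i, 38.9 and 40.2 CPM under PRMT5i and 12.5 and 16.6 CPM in the controls (difference -2.32 ± 0.24, adjusted p = 0.000144) and the inositol phosphatase gene INPP5D at 6.71 and 6.93 CPM under CDK4/6i, 36.4 and 32.7 CPM under PRMT5i and 5.51 and 4.49 CPM in the controls (difference -2.34 ± 0.25, adjusted p = 0.000189). Of these, PTGS2, GDF15, EFEMP1 and INPP5D kept their calls in all 4 fits with 1 library left out and HLA-DOA, LGR6 and EGR1 did not.

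**Figure D5:**
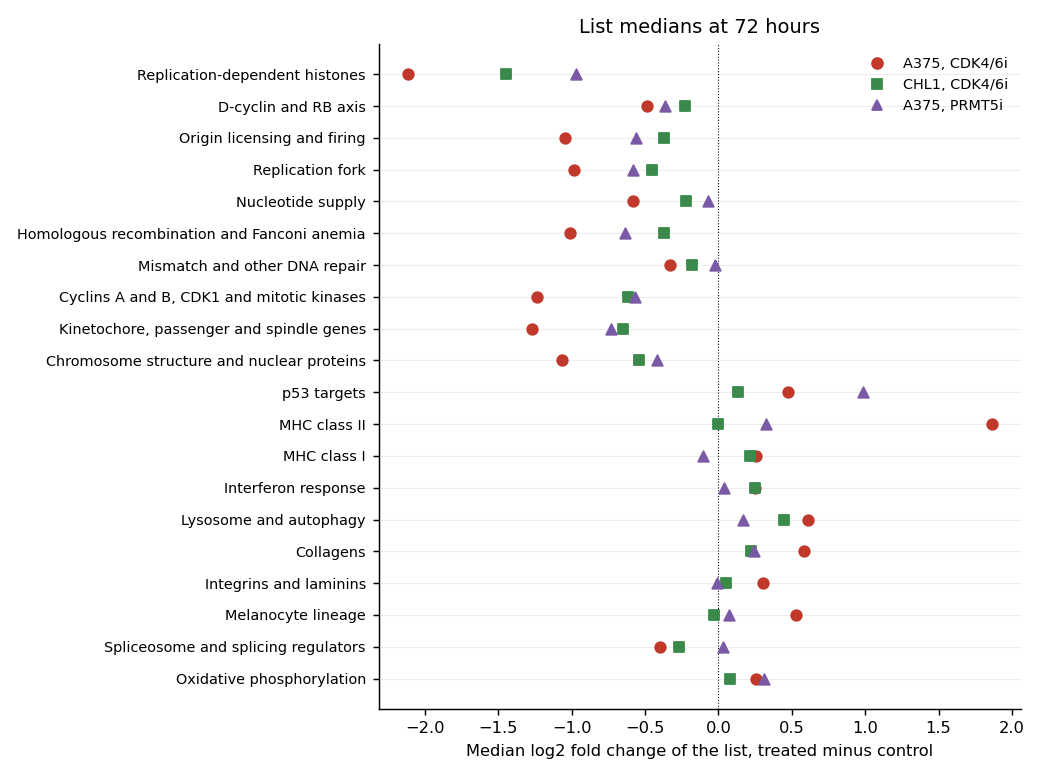
Points give the median log2 fold change of each gene list after 72 hours of CDK4/6i in A375, of CDK4/6i in CHL1 and of PRMT5i in A375, each against controls of its own line, and the A375 treatments share their controls. Histones lie at -2.12, -1.45 and -0.97 and MHC class II genes at 1.87 (1.51 with genes at the floor set to their bound), 0.00 (where 6 of 19 genes had no count) and 0.33 in that order. The CHL1 medians come from the fit of 18 libraries and the A375 medians from that of the 10 A375 libraries.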

How the data were processed

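RNA was extracted from cell pellets (RNeasy), poly(A)-selected libraries were made with a TruSeq kit, and per the labels reads were aligned to GRCh37 with HISAT2 2.0.4 and counted per gene with HTSeq 0.11.2. The study's methods state default HTSeq settings. Whether the kit kept the strand was not given in the sources used here. The deposited values are whole-number counts per gene, not normalized. Samples were grouped by their labels. Counts were scaled by TMM and tested with edgeR 4.0.16 (quasi-likelihood, R 4.3.3) with a mean for each of 5 groups over the 10 A375 libraries and no filter on low counts. Benjamini-Hochberg adjustment ran over all 20705 genes with a threshold of 0.05, and the SE is the absolute log2 fold change divided by the square root of F. The lines were compared by an interaction in a fit of 18 libraries. Levels are CPM on TMM-scaled totals. Groups in which no library had more than 3 counts were taken as at the floor, and a fold against it is a lower bound. Floors cover counting error only.

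The comparison, the gene lists and their members were chosen with earlier results of these data known. Named genes are the 15 largest rises and falls among DEGs averaging 1 CPM or more, up to 6 called members of each of 38 lists by size of change, fixed genes of the CDK4/6 pathway, and the 10 largest differences each way between lines and between drugs. HLA-DPA1, HLA-DPB1, HLA-DMA, RFX5, RFXANK, RFXAP, B2M, NLRC5, TAP2, TFEB, TFE3, HIST2H2BB, PTPRC, CD14 and COL3A1 were named after their values were seen. Of the listed symbols 113 had no entry. Some genes that meet this rule are not reported here. Positions are from GENCODE release 44 mapped to GRCh37, with 16356 genes matched by symbol. The test was checked on counts simulated with the spread of all 10 A375 libraries, in which 120 of 200 changed genes were recovered and 2 unchanged genes were called. The changed genes were drawn only from those above a minimum mean count. Alternatives were other scaling, DESeq2 1.42.0, limma 3.58.1 (voom), a filter on low counts, other sets of libraries, a replicate block, a fold minimum and leaving out each library.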

Additional observations from a re-analysis of the deposited data

Results flagged for a closer look

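The 72-hour response to CDK4/6i differed between A375 and CHL1, by the interaction test in edgeR over all 18 libraries, in 32 of the named genes. Each line has its own controls. Differences are given as the log2 fold change in A375 minus that in CHL1, with the SE and the adjusted p over all genes.

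The response was lower in A375, where all of them fell, in FAM111B (-2.19 ± 0.35, adjusted p = 0.0057), CHAF1B (-1.88 ± 0.33, adjusted p = 0.0112), LMNB1 (-1.68 ± 0.28, adjusted p = 0.00697), POLE2 (-1.60 ± 0.28, adjusted p = 0.0112), WDR76 (-1.40 ± 0.27, adjusted p = 0.0193), BARD1 (-1.26 ± 0.25, adjusted p = 0.0229), DNA2 (-1.26 ± 0.26, adjusted p = 0.028), MCM6 (-1.16 ± 0.25, adjusted p = 0.0404) and EZH2 (-0.92 ± 0.21, adjusted p = 0.0476). WDR76 changed by -2.70 in A375 and -1.30 in CHL1, and CHAF1B by -1.65 in A375 and 0.23 in CHL1.

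Other genes had a higher response in A375. The citrate transporter SLC13A5 differed by 4.70 ± 1.05, adjusted p = 0.0476, the gap junction gene GJB1 by 3.88 ± 0.40, adjusted p = 0.000137, the transcript LINC01151 by 3.88 ± 0.80, adjusted p = 0.0327 and PTGS2 by 3.76 ± 0.54, adjusted p = 0.00237. LINC01151 was at the floor of 3 counts in both A375 controls, so its fitted difference depends on the prior count and is no bound. GJB1 changed by 2.99 in A375 and -0.89 in CHL1, with 29.9 and 26.3 CPM in the CHL1 controls and 16.5 and 13.8 CPM in CHL1 under CDK4/6i. The VEGF receptor gene FLT1 differed by 3.56 ± 0.39, adjusted p = 0.00025, having changed by 2.96 in A375 and -0.60 in CHL1. The transcript RP11-170M17.1 differed by 3.24 ± 0.63, adjusted p = 0.0206, the proteoglycan versican (VCAN) by 3.04 ± 0.45, adjusted p = 0.00277, the lipid phosphatase gene PPAPDC1A by 3.03 ± 0.30, adjusted p = 0.000137, the junction gene PLEKHA7 by 2.89 ± 0.47, adjusted p = 0.0057 and HHIPL2 by 2.88 ± 0.62, adjusted p = 0.0404. VCAN changed by 1.36 in A375 and -1.67 in CHL1. CD74 differed by 2.62 ± 0.45, adjusted p = 0.00967, COL17A1 by 2.20 ± 0.44, adjusted p = 0.025 and FN1 by 1.67 ± 0.33, adjusted p = 0.0251.

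Further differences below 0 were those of PTCHD2 (-4.16 ± 0.92, adjusted p = 0.0451), AC005077.12 (-2.99 ± 0.60, adjusted p = 0.025), AP000705.7 (-2.95 ± 0.66, adjusted p = 0.0476), TMEM108 (-2.71 ± 0.51, adjusted p = 0.0172), the peptide hormone gene ADM2 (-2.70 ± 0.55, adjusted p = 0.028) and LINC01037 (-2.61 ± 0.56, adjusted p = 0.0398). PTCHD2 was at the floor in both treated A375 libraries, so the same holds for its value. The arginine synthesis enzyme ASS1 differed by -2.52 ± 0.39, adjusted p = 0.00408 and changed by -0.72 in A375 and 1.79 in CHL1, with 3.7 and 4.01 CPM in the CHL1 controls and 13.8 and 12.9 CPM in CHL1 under CDK4/6i. The calcium binder CIB2 differed by -2.49 ± 0.45, adjusted p = 0.0126, the cytokine signalling inhibitor SOCS2 by -2.44 ± 0.43, adjusted p = 0.0112 and INSIG1 by -1.49 ± 0.28, adjusted p = 0.0168. INSIG1 changed by -1.47 in A375 and 0.02 in CHL1.

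The calls of ASS1, FLT1, GJB1, PPAPDC1A, PTGS2 and VCAN held in all 8 fits with 1 library left out. The other 26 were lost in at least 1 such fit, and all 32 held under other scaling, DESeq2, the filter, the 8 compared libraries and the replicate block.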

How the results depend on the processing

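The 2761 DEGs became 2658 with median-of-ratios scaling, 2997 with DESeq2, 2184 with limma voom, 2816 with a filter of at least 1 CPM in 2 libraries and 3123 (54.7% up-regulated) in a fit of all 18 libraries. They rose to 6940 (3344 up, 3596 down) with only the 4 compared libraries and 6424 (3049 up, 3375 down) with the 6 A375 libraries of 72 hours, and fell to 1510 (783 up, 727 down) with a log2 fold change of at least 1 required. With 1 library left out the count ranged from 827 to 1042 (315 to 430 up, 419 to 612 down), and the lone sample of a group was then assumed to vary like the other groups. The difference between lines, 133 genes, became 358 (204 higher, 154 lower in A375) with DESeq2, 1797 (948 and 849) with the 8 compared libraries and 30 to 46 (23 to 32 and 5 to 15) with 1 library left out. The difference between drugs, 1129 genes, became 1136 with median-of-ratios scaling, 1597 with DESeq2, 1187 with the filter, 4571 (2207 higher, 2364 lower under CDK4/6i) with the 6 libraries and 92 to 141 (49 to 106 and 32 to 47) with 1 library left out. Distinct list members called up, 100, became 223 with the 4 libraries, 198 with the 6 libraries and 42 to 50 with 1 library left out, and those called down, 314, became 192 to 250 with 1 library left out.

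Replicate numbers are shared between groups, but no label says that a number marks a shared culture or day. The correlation of replicate 1 minus replicate 2 across 15092 genes was 0.189 between control and CDK4/6i, 0.418 between control and PRMT5i and 0.219 between CDK4/6i and PRMT5i, and with 2 numbers this does not establish pairing. A replicate block raised the DEGs to 8752 (4269 up, 4483 down), the difference between lines to 3268 (1729 and 1539), the difference between drugs to 7167 (3367 and 3800) and the list members to 275 up and 500 down. The cause of these shifts was not tested. No named gene changed direction past the threshold in any alternative run. Of 188 named DEGs 111 passed in all 4 fits with 1 library left out and 167 in all other fits, and of 24 named genes not called 11 passed in some other fit.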

Other observations

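The same drug was also given to A375 for 6 days, with 6-day controls of its own. The difference between the time points was not tested, and the 6-day controls varied more than any other group, with a biological coefficient of variation of 0.301. At 72 hours and 6 days the log2 fold change was 2.56 and 2.03 for HLA-DRA, 1.87 and 1.49 for CD74 and 1.52 and 1.32 for CDKN1A. It was -2.26 and -2.19 for LMNB1, -1.71 and -1.30 for MKI67 and -2.54 and -2.06 for POLE2. These genes are examples, and the values of other named genes lay further apart. They were 3.01 and 0.61 for TDRD6, -3.65 and -1.50 for HIST1H1A, -3.07 and -1.50 for C2orf48 and -1.87 and 0.82 for ADM2. At 6 days TDRD6 and ADM2 did not pass the test. PTGS2 had 3.56 and 4.35.

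Genes whose level differed most between CDK4/6i and PRMT5i in A375 and that stand in no list included TDRD6 (log2 difference 2.98 ± 0.38, adjusted p = 0.000859), with 3.02 and 3.39 CPM under CDK4/6i, 0.475 and 0.323 CPM under PRMT5i and 0.472 and 0.317 CPM in the controls, and the cytokine gene IL19 (2.60 ± 0.40, adjusted p = 0.00228), with 2.91 and 3.91 CPM under CDK4/6i, 0.297 and 0.841 CPM under PRMT5i and 0.735 and 0.475 CPM in the controls. STMN3, a neuronal relative of STMN1, was lower under CDK4/6i (-3.39 ± 0.31, adjusted p = 5.6e-05), with 0.935 and 1.51 CPM under CDK4/6i, 12 and 13.8 CPM under PRMT5i and 5.93 and 6.75 CPM in the controls. C2orf48 was lower too (-2.23 ± 0.32, adjusted p = 0.00146), with 8.58 and 9.43 CPM under CDK4/6i, 48.1 and 36.4 CPM under PRMT5i and 88.7 and 63.1 CPM in the controls. The calls of TDRD6, STMN3 and C2orf48 held in all 4 fits with 1 library left out, and that of IL19 in 3.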
